A study of Mus musculus with 5 samples.

Results

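The enzymes that carry long-chain fatty acids into the mitochondrion and break them down there were examined in hearts of E10.5 mouse embryos labelled as control or knockout. Of 10 listed genes, 8 were measured (Cpt1a, Cpt2, Acadm, Acadl, Acadvl, Hadha, Etfb and Etfdh), out of 23279 genes in the whole table. Each gene was represented by its brightest probe set with that symbol in the platform annotation, and each of the 8 had 1 probe set. Cpt1b and Hadhb had no probe set under their symbols and were not analysed here. All 8 measured enzymes passed the filter on dim genes, a mean log2 level over the arrays of at least 4.44.

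The arrays came from untreated embryonic hearts, 3 of genotype Control and 2 of genotype KO at E10.5. The series title names Lrrfip2 and asks about its part in the response to hypoxia during heart formation. The labels do not name the knocked-out allele, the genotype of the controls beyond that word, the strain or the sex, nor whether an array holds 1 heart or a pool. The p-values therefore measure the spread between these 5 samples, which may be partly technical. Replicate numbers follow the order of the samples in the series and pair nothing between groups. Values are log2 levels after RMA, used as deposited, and differences are knockout minus control. They are levels of separate probe sets, so the level of one gene was not set against that of another. Lrrfip2 itself was at 7.33, 8.07 and 8.08 on the control arrays and at 6.36 and 6.22 on the knockout arrays, so this gene ran with the labels. Cardiomyocyte markers were high on every array, with troponin T, Tnnt2, between 12.19 and 12.40.

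Fatty acids enter the mitochondrial matrix as carnitine esters. Cpt1 enzymes on the outer membrane make the ester and are inhibited by malonyl-CoA, and Cpt2 on the inner membrane returns the acyl chain to CoA. Acyl-CoA dehydrogenases (Acadvl for very long, Acadl for long and Acadm for medium chains) take the first electrons, the trifunctional protein of Hadha and Hadhb carries out the later steps on long chains, and the flavoprotein Etf, a dimer of Etfa and Etfb, passes the electrons through Etfdh to ubiquinone. The adult heart draws most of its energy from this pathway, the early embryonic heart relies mainly on glucose and lactate, and PPAR and estrogen-related receptors with the coactivator Ppargc1a drive the genes as the heart matures. Low oxygen is known to lower the use of fatty acids in many cell types.

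The 250 bases before the start of a gene were available for all 8 enzymes from RefSeq (GRCm38.p6). They are shown for 5 enzymes: Etfb, the enzyme with the smallest p in the comparison below, Acadvl, Acadm and Cpt1a, which carry the hexamer AGGTCA bound by nuclear receptors, and Etfdh, which with Acadm carries CGCATGCG, the centre of the NRF1 palindrome. Capitals mark, on either strand, AGGTCA, the cores ACGTG and GCGTG of hypoxia elements, CCAAT and CGCATGCG. No marked motif overlaps another.
Etfb, chr7:43443822-43444071, plus strand: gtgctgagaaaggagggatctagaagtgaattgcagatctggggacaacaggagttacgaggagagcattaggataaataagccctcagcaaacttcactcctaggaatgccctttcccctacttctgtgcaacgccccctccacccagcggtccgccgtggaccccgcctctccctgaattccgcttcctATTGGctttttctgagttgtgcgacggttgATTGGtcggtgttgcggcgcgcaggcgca
Acadvl, chr11:70015429-70015678, minus strand: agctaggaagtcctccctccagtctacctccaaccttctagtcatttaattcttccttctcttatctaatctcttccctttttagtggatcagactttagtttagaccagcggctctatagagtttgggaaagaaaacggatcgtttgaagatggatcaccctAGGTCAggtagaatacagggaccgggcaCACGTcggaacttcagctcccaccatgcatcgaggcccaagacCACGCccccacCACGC
Acadm, chr3:153944644-153944893, minus strand: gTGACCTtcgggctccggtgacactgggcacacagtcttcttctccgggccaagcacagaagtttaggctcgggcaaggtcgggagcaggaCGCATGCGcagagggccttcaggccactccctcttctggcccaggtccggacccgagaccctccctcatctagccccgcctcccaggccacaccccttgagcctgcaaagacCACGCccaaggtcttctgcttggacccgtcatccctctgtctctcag
Cpt1a, chr19:3323051-3323300, plus strand: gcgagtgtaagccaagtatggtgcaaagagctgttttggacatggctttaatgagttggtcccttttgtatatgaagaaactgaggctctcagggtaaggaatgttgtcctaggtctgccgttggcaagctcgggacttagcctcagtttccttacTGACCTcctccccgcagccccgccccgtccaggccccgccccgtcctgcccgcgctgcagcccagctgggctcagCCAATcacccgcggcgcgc
Etfdh, chr3:79628768-79629017, minus strand: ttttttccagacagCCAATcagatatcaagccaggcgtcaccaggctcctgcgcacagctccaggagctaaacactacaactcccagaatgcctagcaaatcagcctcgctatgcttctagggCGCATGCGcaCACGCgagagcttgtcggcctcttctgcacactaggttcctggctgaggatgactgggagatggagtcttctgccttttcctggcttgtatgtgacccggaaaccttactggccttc
AGGTCA lay in 3 of the 8 windows (Cpt1a, Acadm and Acadvl), against 14% of all 32851 promoter windows of the same length. ACGTG lay in 1 of 8 (Acadvl), against 16.6%, and GCGTG in 4 of 8 (Cpt2, Acadm, Acadvl and Etfdh), against 28.2%. CCAAT lay in 3 of 8 (Cpt1a, Etfb and Etfdh), against 33.8%, and GGGCGG, the GC box, in 4 of 8, against 32.7%. CGCATGCG lay in 2 of 8 (Acadm and Etfdh), against 1.55%. The estrogen-related receptor element TCAAGGTCA (0.387% of all windows), which contains AGGTCA, was in 0 of the 8. AAGGTCA, which also contains AGGTCA, lay in 1 of 8 (Acadm), against 4.08%, GGGTCA in 1 of 8 (Etfdh), against 11.6%, and the ETS element CCGGAAGT in 1 of 8 (Cpt2), against 2.88%. The motifs, and which of them to mark, were settled after these windows had been searched; the NRF1 motif was shortened to its centre after a longer form had been matched in Etfdh alone, and a direct repeat of AGGTCA, searched without a match, is not reported by its letters. Each match describes letters in the window and is not a measured site. Hadha and Hadhb are transcribed away from each other, with 272 bases between their starts in RefSeq, so most of this window is shared by both.

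All 8 measured enzymes had lower mean levels in the knockout hearts, by small amounts, and none passed the test. The differences ran from -0.25 (Cpt1a) to -0.10 (Hadha), with a median of -0.17, which is -11.2% on the linear scale. Over all 13967 genes tested the median was -0.0154, and 55.2% were lower in knockout. With limma and Benjamini-Hochberg adjustment over all genes, 0 of the 8 had an adjusted p under 0.05, as had 0% of all genes tested. The adjusted p of the 8 lay between 0.434 and 0.721, and the smallest over all genes was 0.287. Etfb alone of the 8 had an unadjusted p below 0.05, 1 of 8 against 8.78% of all genes, or 5.49% counting only genes lower in knockout.

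**Figure D1:**
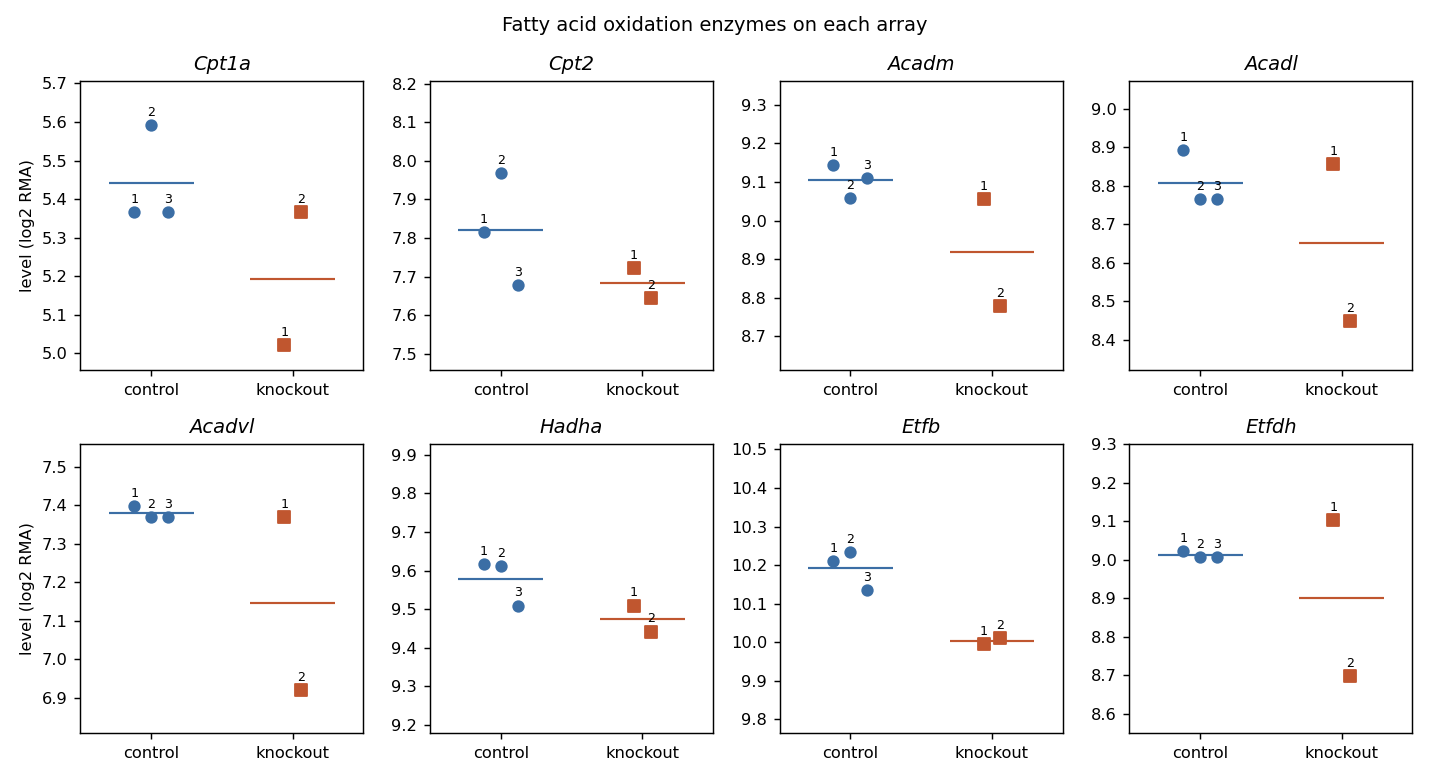
Log2 RMA level of each of the 8 enzymes on the 3 control arrays (blue circles) and the 2 knockout arrays (orange squares); small digits are replicate numbers, horizontal lines are group means, and each panel has its own vertical axis of equal span. The knockout arrays lie close together for Etfb, at 9.99 and 10.01, and far apart for Acadvl, at 7.37 and 6.92.

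Cpt1a and Cpt2, the measured genes of the entry step, had lower means in knockout, and neither separated the groups. Cpt1a was at 5.37, 5.59 and 5.37 on the control arrays and at 5.02 and 5.37 on the knockout arrays. Knockout replicate 1 was the lowest of the 5, while knockout replicate 2 had exactly the value of control replicates 1 and 3. The difference was -0.25 ± 0.14 (SE), with a 95% interval of -0.64 to 0.14. Cpt2 was at 7.81, 7.97 and 7.68 in control and 7.72 and 7.65 in knockout. Here the groups overlapped, since control replicate 3 lay below knockout replicate 1, and the difference of -0.14 ± 0.10 (SE) was smaller than the control range of 0.291.

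The 3 acyl-CoA dehydrogenases among the 8 enzymes were lower in knockout replicate 2 and near the controls in knockout replicate 1. Acadvl was at 7.40, 7.37 and 7.37 in control, at 7.37 in knockout replicate 1 and at 6.92 in knockout replicate 2. Acadl was at 8.89, 8.76 and 8.76 in control, at 8.85 in knockout replicate 1 and at 8.45 in knockout replicate 2. Acadm was at 9.14, 9.06 and 9.11 in control, at 9.06 in knockout replicate 1 and at 8.78 in knockout replicate 2. For all 3 genes knockout replicate 2 was the lowest array, and only for Acadm was knockout replicate 1 also below every control, by 0.000608. The differences were -0.23 ± 0.15 for Acadvl, -0.16 ± 0.14 for Acadl and -0.19 ± 0.10 for Acadm (SE), and each 95% interval included 0. Without knockout replicate 2 the difference for Acadl turned to 0.0473, and that for Acadvl was -0.00944.

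Hadha, the alpha subunit of the trifunctional protein, was at 9.62, 9.61 and 9.51 in control and at 9.51 and 9.44 in knockout. Both knockout arrays lay at or below the lowest control, whose value knockout replicate 1 shared exactly. The difference was -0.10 ± 0.054 (SE), a level lower by 6.93% (95% interval from -16.0% to 3.17%). Hadha thus had the smallest difference of the 8.

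The electron carriers behaved differently from each other. Etfb was at 10.21, 10.24 and 10.14 in control and at 9.99 and 10.01 in knockout. It was the only one of the 8 whose knockout arrays were both clearly below the controls, with a gap of 0.126 between the groups; knockout replicate 1 minus knockout replicate 2 was -0.0162. The difference was -0.19 ± 0.045 (SE), or -12.4% (95% interval from -19.6% to -4.51%), with an unadjusted p of 0.0129 and an adjusted p of 0.434 in limma. Its unadjusted p stayed below 0.05 in 12 of 14 alternatives; it was 0.0695 after the values were quantile normalized again, with a difference of -0.14, and 0.0504 without knockout replicate 1. Etfdh was at 9.02, 9.01 and 9.01 in control, at 9.10 in knockout replicate 1 and at 8.70 in knockout replicate 2. The knockout arrays therefore fell on opposite sides of 3 nearly equal controls. The difference of -0.11 ± 0.13 (SE) turned to 0.0923 without knockout replicate 2, a value that sets 1 knockout array against the 3 controls. Etfa, the partner of Etfb and not among the 8, was between 9.98 and 10.02 in control, at 9.98 in knockout replicate 1 and at 9.70 in knockout replicate 2, which placed it nearer to the dehydrogenases than to Etfb (it was named after its values were seen).

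**Figure D2:**
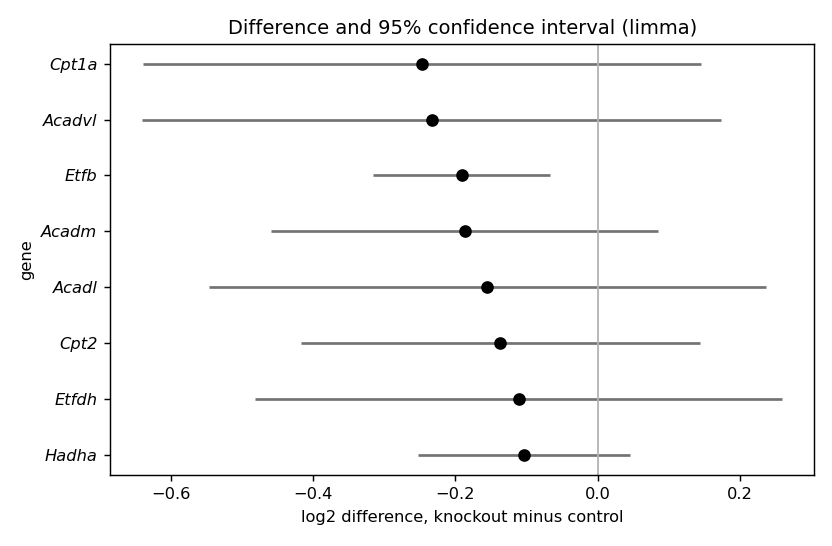
Log2 difference, knockout minus control, of each of the 8 enzymes (points) with its 95% confidence interval from limma (lines), ordered by size. All points lie left of 0, and the interval of Etfb alone leaves out 0.

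Counted array by array, the difference rested more on knockout replicate 2. That array was below every control for 7 of the 8 enzymes, against 28.2% of all genes tested. Knockout replicate 1 was below every control for 3 of 8 (Cpt1a, Acadm and Etfb), against 33.9%, a share near the background. Both knockout arrays were below every control for 2 of 8 (Acadm and Etfb), against 13.1%. Relative to the control mean, the 8 had a median shift of -0.0588 on the first knockout array, -0.248 on the second and -0.0499 to 0.0173 on the control arrays. Leaving out knockout replicate 2 thus gave a median difference of -0.0588 with 6 of 8 lower, and leaving out knockout replicate 1 gave -0.25 with 8 of 8 lower. The knockout arrays differed from each other by more than the control range for 5 of the 8, as they did for 48.6% of all genes.

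**Figure D3:**
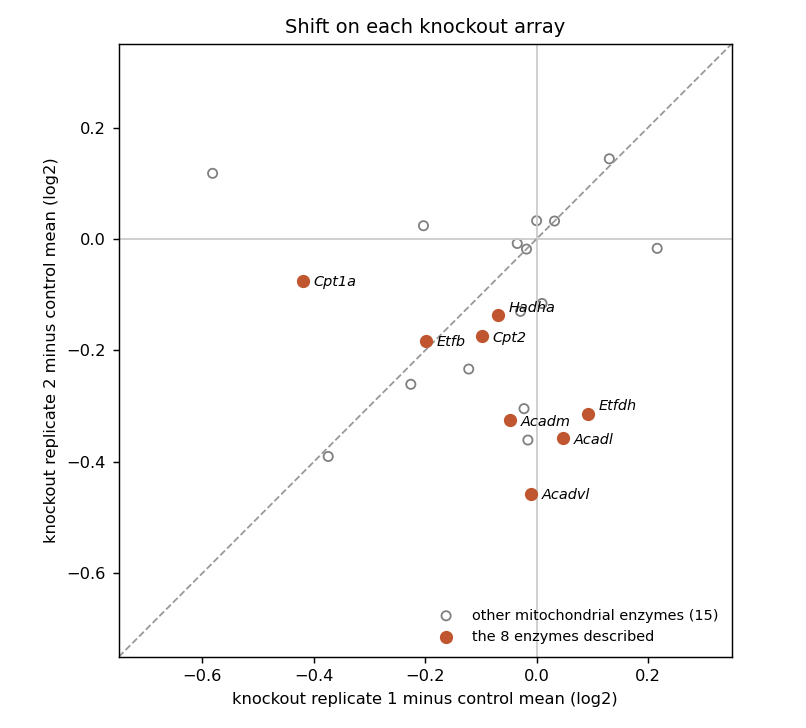
Level on knockout replicate 1 (horizontal) and knockout replicate 2 (vertical) minus the control mean, in log2 units, for the 8 enzymes (filled, named) and 15 other mitochondrial beta-oxidation genes (open); the dashed line marks equal shifts on both arrays. Etfb lies near that line, Cpt1a left of it, and Acadvl, Acadl, Acadm and Etfdh below it.

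Knockout replicate 2 also differed from the other arrays in markers of other cells. Of 14 liver and gut endoderm markers, 13 were highest there, and their mean level was 7.88 against 4.43 to 4.56 on the other 4 arrays; Afp was at 11.42 there and between 3.86 and 4.07 elsewhere. The mean of 12 cardiomyocyte markers was 11.22 there and 11.37 to 11.39 elsewhere. Actn2 had the largest drop of the 12, at 9.92 against 10.42 to 10.52. Myl7 and Nppa were slightly above their control means there, by 0.0488 and 0.0289. In knockout replicate 1 the mean of the cardiomyocyte markers was 11.38, within the control range, and that of the endoderm markers was the lowest (4.43). The cardiomyocyte markers were split there, with Tnnt2 at 12.40 against 12.29 to 12.31 in control and Nkx2-5 at 7.14 against 7.56 to 7.80. Both knockout arrays were below every control for 4 of the 12 (Myh6, Nkx2-5, Tnni1 and Tnnc1), against 13.1% of all genes. They were above every control for 1 (Myl7). The mean of 8 cushion mesenchyme and epicardium markers was 6.61 in knockout replicate 1 against 6.87 to 7.44 in control. The second knockout array lay on the other side, with a mean of 7.50, slightly above that range. Of these markers, 5 had their highest level there, while Twist1, Sox9 and Prrx1 stayed within their control ranges. In knockout replicate 1, Twist1 (6.71 against 7.35 to 7.72), Tcf21, Sox9, Prrx1 and Col1a1 were below every control. Wt1 alone was above (7.90 against 7.70 to 7.77). The mean of 7 macrophage markers was 5.56 in knockout replicate 1 and 5.03 to 5.14 elsewhere; Tyrobp, at 7.65 against 4.85 to 5.09, stood out, and Cx3cr1 was also highest there, while Cd68 (6.45) and C1qb (5.29) lay within the control range. The mean of 7 erythroid markers was 8.41 and 8.65 on the first and second knockout arrays, within the control range of 8.39 to 9.67. All 7 had lower means in knockout. Klf1 was below every control on both knockout arrays (5.23 and 5.05 against 5.29 to 5.89), and Slc4a1 on the first (6.12 against 6.82 to 9.34). For 8 endothelial and endocardial markers the mean was 8.59 on the first knockout array, above the control range of 8.05 to 8.33. On the second it was 8.21, within that range. On the first, Pecam1 (9.34 against 8.29 to 8.58), Cdh5, Kdr, Emcn and Npr3 were above every control. Nfatc1 alone was below (6.69 against 6.76 to 7.01). Both knockout arrays were above every control for 3 of the 8 (Pecam1, Cdh5 and Kdr) and below for 1 (Nfatc1). The part of these cell types in the enzymes' values on the first knockout array was not tested. With the cardiomyocyte level as a covariate the median of the 8 was -0.0688, and with the endoderm level it was -0.0637. Both covariates stand apart in knockout replicate 2 alone, so these fits nearly repeat leaving that array out, and marker levels and other properties of that array cannot be told apart. In whole hearts, fewer cells of a type and less RNA per cell cannot be told apart either.

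**Figure D4:**
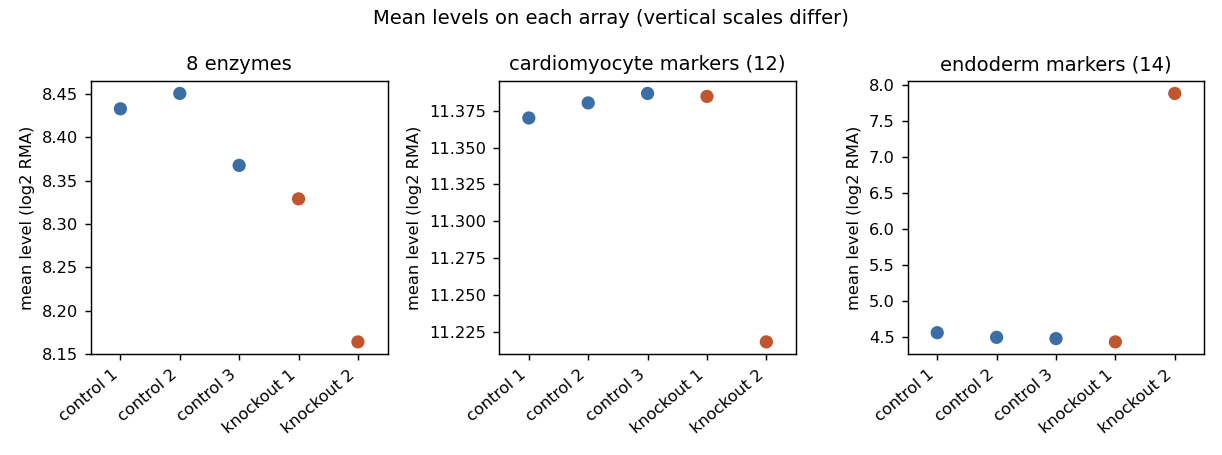
Mean log2 RMA level on each of the 5 arrays for the 8 enzymes, 12 cardiomyocyte markers and 14 liver and gut endoderm markers (control arrays blue, knockout arrays orange; vertical scales differ and do not start at 0). Knockout replicate 2 is the lowest array in the first and second panels and the highest in the third.

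Other genes of mitochondrial beta-oxidation, such as the thiolase, the isomerases and the short-chain enzymes, were lower in knockout for 11 of 15 tested, with a median of -0.0795, and 0 passed the adjusted threshold. The 3 with an unadjusted p below 0.05, against 8.78% of all genes and 5.49% counting lower ones, were Eci1, Acaa2 and Pccb, each lower. Of 14 alternatives, the unadjusted p stayed below 0.05 in 8 for Eci1, 8 for Acaa2 and 4 for Pccb. With array weights it was 0.0718, 0.170 and 0.0872, respectively. Eci1, the isomerase for unsaturated chains, was between 7.90 and 8.21 in control and at 7.66 and 7.65 in knockout, a difference of -0.38 ± 0.10 (SE). Acaa2, the thiolase of the last step, was at 9.03, 8.81 and 8.87 in control and at 8.68 and 8.64 in knockout, a difference of -0.24 ± 0.078 (SE). Pccb, which handles propionyl-CoA from odd chains, was at 7.53, 7.44 and 7.42 in control and at 7.34 and 7.23 in knockout. As with Etfb, the groups did not overlap for these 3 genes. Both knockout arrays were below every control for 3 of 15, against 13.1% of all genes. The 3 were named for their unadjusted p, so their separation adds no independent support. For Eci1 and Acaa2 the knockout arrays lay close together. The list's median shift was small on each knockout array taken alone, -0.0226 on the first and -0.0181 on the second.

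In the carnitine shuttle, 4 of 6 tested genes were lower, with a median of -0.0849 (-0.11 to -0.0599 with 1 array left out). Crat, which moves acetyl groups between carnitine and CoA, was at 7.41, 7.37 and 7.23 in control and at 6.55 and 6.82 in knockout. Its difference of -0.65 ± 0.11 (SE) was larger than that of any of the 8 enzymes, with an unadjusted p of 0.00413 and an adjusted p of 0.355 in limma, and the unadjusted p stayed below 0.05 in each of 14 alternatives. The malonyl-CoA genes were lower for 6 of 6, against 55.2% of all genes, with a median of -0.19. Acacb, the acetyl-CoA carboxylase that makes malonyl-CoA beside Cpt1, was at 5.91, 5.91 and 5.86 in control and at 5.59 and 5.14 in knockout, and Prkag2, an AMP-activated kinase subunit, differed by -0.30 ± 0.074 (SE). Both had an unadjusted p under 0.05, 2 of 6 against 5.49% of all genes counting lower ones, and neither passed over all genes (adjusted p of 0.494 and 0.443 in limma). The unadjusted p of Prkag2 stayed below 0.05 in 11 of 14 alternatives. The exceptions were the endoderm covariate, the cardiomyocyte covariate and leaving out knockout replicate 2. For Acacb it stayed below 0.05 in 10 of 13, and was above when any 1 control array was left out (0.0700 to 0.0760 in limma).

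Of the uptake and activation genes, 6 of 8 tested were higher, with a median of 0.11. This median was 0.26 without knockout replicate 2 and 0.0318 without knockout replicate 1. Fabp5, a fatty acid binding protein, was at 7.54, 7.32 and 7.05 in control and at 8.37 and 8.43 in knockout. This was a difference of 1.09 ± 0.16 (SE), or a 2.13-fold higher level, with an unadjusted p of 0.00237 and an adjusted p of 0.354 in limma. It was the 1 gene of the list with an unadjusted p below 0.05, against 3.29% of all genes when only higher ones are counted. Its unadjusted p stayed below 0.05 in each of 14 alternatives. For lipid droplets and lipolysis, 6 of 13 were higher and the median was -0.0712. With 1 array left out that median lay between -0.0380 and 0.0183, turning sign without knockout replicate 1, so the list had no stable direction. The triglyceride synthase Dgat2 was between 5.15 and 5.40 in control and at 5.85 and 6.37 in knockout, a difference of 0.81 ± 0.19 (SE, unadjusted p of 0.0127, adjusted p of 0.434 in limma).

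The regulators of the pathway showed no common direction, with 8 of 15 tested lower, a median of -0.00543 (-0.0329 to 0.00759 with 1 array left out) and 0 at an unadjusted p below 0.05. Ppara, the receptor most tied to these enzymes in the mature heart, was below the dim level on all 5 arrays (2.87 to 3.38), as was Pparg (3.61 to 3.92). Those with the smallest p were Esrrg, an estrogen-related receptor, Hnf4a and Nrf1. Esrrg was at 8.35, 8.47 and 8.49 in control, at 8.35 in knockout replicate 1 and at 7.69 in knockout replicate 2. It was thus low on the same array as Acadvl, Acadl and Acadm. That array was below every control for 28.2% of all genes tested, and a link between Esrrg and these enzymes was not tested. Hnf4a, a factor of liver and gut, was between 4.63 and 4.80 on 4 arrays and at 6.34 in knockout replicate 2. Nrf1 differed by -0.12 ± 0.078 (SE). Of the other PPAR targets, 2 of 4 were lower, and the list's median of 0.000974 was -0.10 without knockout replicate 2 and 0.11 without knockout replicate 1. Differences were -0.15 for Angptl4, 0.0493 for Pdk4 and -0.0193 for Acot2. Of the ketone body genes 2 of 4 were lower, with a median of 0.0101 that was 0.0869 without knockout replicate 2 and -0.12 without knockout replicate 1, and with differences of -0.0531 for Oxct1, 0.0482 for Acat1 and 0.0207 for Slc16a1.

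Genes of mitochondrial import and structure, set beside the enzymes as a measure of the organelle, were lower for 17 of 21, with a median of -0.10. Timm50 (-0.31) had an unadjusted p under 0.05, 1 of 21 and below the background share, and 0 passed over all genes. Its unadjusted p stayed below 0.05 in 8 of 14 alternatives. The median shift of this list was -0.0538 on the first knockout array and -0.0747 on the second, beside -0.0588 and -0.248 for the 8 enzymes. In knockout replicate 1 the enzymes and the import genes thus had similar shifts, and the wider gap lay in knockout replicate 2. That difference between lists was not tested.

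**Figure D5:**
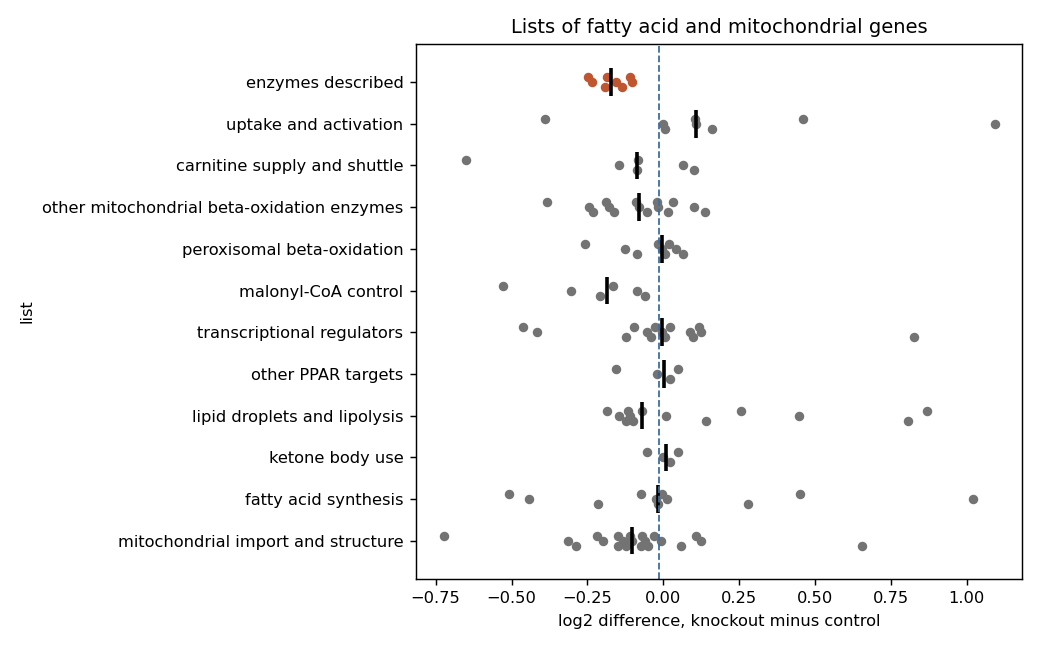
Log2 difference, knockout minus control, of every tested gene in each list (points, spread vertically for legibility) with the list's median (black bars) and the median of all genes tested, -0.0154 (dashed line). The 8 enzymes (orange) span -0.25 to -0.10, while Fabp5 at 1.09 is the rightmost point of the uptake list and Crat at -0.65 the leftmost of the shuttle list.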

How the data were processed

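The authors deposited log2 RMA levels of 24479 probe sets on 5 arrays. Affymetrix Expression Console and RMA are named in the submitters' processing notes; the sources used here give no versions and no genome build. Exact ties between arrays are frequent: 54.8% of genes tested, and 5 of the 8 enzymes, share a value between at least 2 arrays.

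The platform annotation gives 1 symbol for 23281 probe sets and none for 1198. Symbols were updated through Entrez numbers in RefSeq GRCm38.p6 (23156 matched), and the brightest probe set of a gene was kept. Genes below the 40th percentile of the mean were left out (9312 genes), and knockout was compared with control over 13967 genes with limma 3.58.1 in R 4.3.3 (lmFit and eBayes, two-sided, no covariate, Benjamini-Hochberg adjustment, threshold 0.05). Only the fit was tested on simulated data, with independent noise and planted differences far larger than those of the enzymes. That test does not bear on differences of their size. A permutation of 2 against 3 arrays cannot give a p below 0.1.

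The enzymes and all lists were chosen with earlier results of these data known. Named are all 8 enzymes and, of each other list of pathway genes, those with an unadjusted p under 0.05 or otherwise the 3 with the smallest p. Also named are Lrrfip2 and up to 4 markers of a cell type with the highest mean level. Genes named after their values were seen were Etfa, Ppara, Pparg, Afp, Actn2, Fasn, Scd1, Nkx2-5, Klf1 and Nfatc1. So were the markers Myh6, Myl7, Tnni1, Nppa, Kdr, Sox9, Prrx1 and Col1a1. Alternatives concerned the dim filter, variance prior, array weights, normalization, centring, probe sets, marker covariates and each array left out. The number of arrays limits the precision.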

Additional observations from a re-analysis of the deposited data

How the results depend on the processing

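No scanner values were used to judge background. No enzyme passed the adjusted threshold under any of the 14 alternatives, and between 6 and 8 of the measured enzymes were lower in each (7 of 7 with the stricter dim filter, which left out Cpt1a). Their median difference lay between -0.0588 and -0.25 when 1 array was left out, and was -0.0637 and -0.0688 with the endoderm and the cardiomyocyte level as a covariate. Enzymes at an unadjusted p under 0.05 numbered 0 after quantile normalization again, 2 with the endoderm covariate, and 1 to 4 when 1 array was left out. The 2 with the endoderm covariate and the 2 without knockout replicate 2 were Etfb, lower, and Etfdh, higher in knockout. The 4 without knockout replicate 1 were Acadm, Acadl, Acadvl and Etfdh, all lower, and did not include Etfb. The 2 without control replicate 3 were Etfb and Hadha, both lower. A fit with 1 knockout array assumes that it varies as control arrays do. Over all genes, 1011 passed without knockout replicate 2, 9 without knockout replicate 1 and 810 with the endoderm covariate.

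Differences that changed sign were those of Acadl (0.0362 with the endoderm covariate, 0.0253 with the cardiomyocyte covariate, -0.36 to 0.0473 with 1 array left out), Etfdh (0.0827, 0.0758, and -0.31 to 0.0923) and Oxct1 (0.10, 0.0954, and -0.22 to 0.11). Others were Angptl4 (-0.60 to 0.29), Pdk4 (-0.0190 with array weights, -0.17 to 0.27), Slc16a1 (-0.0228 to 0.0641) and Acat1 (-0.29 to 0.38). The cause was not tested. No paired analysis was possible because the sample numbers in the labels are not shared between the groups.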

Other observations

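Genes of fatty acid synthesis, the opposite pathway, gave no common direction: 7 of 11 were lower, with a median of -0.0168. This median balances opposite shifts, -0.12 on the first knockout array and 0.13 on the second. Me1, which supplies NADPH, was at 6.55, 6.77 and 6.72 in control and at 6.34 and 6.14 in knockout (-0.44 ± 0.10, SE; unadjusted p of 0.0129, adjusted p of 0.434 in limma; 9 of 14 alternatives kept the unadjusted p below 0.05). The synthase Fasn and the desaturase Scd1, named after their values were seen, differed between the knockout arrays. Fasn was at 6.88 and 8.48 on the first and second knockout arrays and at 8.13 to 8.22 in control, and Scd1 was at 5.42 and 7.68, with 4.98 to 5.98 in control. Peroxisomal beta-oxidation genes had a median of -0.00372 (-0.0319 to 0.0146 with 1 array left out) with 5 of 9 lower, and Pex11a (-0.26), Scp2 (-0.0856) and Acox3 (0.0411) had the smallest p. Pex11a, a peroxisome division factor, was at 5.63, 5.61 and 5.61 in control and at 5.18 and 5.53 in knockout. Its difference was -0.44 without knockout replicate 2 and -0.0817 without knockout replicate 1. That of Acacb was -0.30 without knockout replicate 2 and -0.75 without knockout replicate 1.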
